A study of Mus musculus with 24 samples.

Results

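Border-associated macrophages are the resident macrophages of the meninges, the perivascular spaces and the choroid plexus. The 9 genes described here are often used to tell them from microglia, and they were followed through bulk RNA-seq libraries of CD11b-sorted brain cells. They encode scavenger and endocytic receptors (Mrc1, Cd163 and Stab1), surface receptors for hyaluronan, sialic acid and folate (Lyve1, Siglec1 and Folr2), a carbonyl reductase (Cbr2), a platelet-type chemokine (Pf4) and a membrane-spanning protein of the MS4A family (Ms4a7). The 9 symbols were taken from a fixed list of names, which was chosen with earlier results of these data known. All 9 of them were found among the 20636 genes of both deposited TPM tables (transcripts per M, with M for mega). All 9 also passed the filter on low values, which asked for a mean of 1 TPM or more per age and kept 11792 genes at 17 months and 11587 at 3 months.

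The 24 libraries came from C57BL/6J mice that were homozygous (HOM) or heterozygous (HET) for a knockout of 3110043O21Rik, the mouse counterpart of C9orf72, or wild type (WT), with 4 animals per genotype at 17 months and 4 at 3 months. All animals share the strain and the preparation. Per the labels' protocols, the meninges were taken off the brain, the tissue was dissociated with papain, myelin was removed with beads, and cells carrying CD11b, an integrin of microglia and other myeloid cells, were pulled out on magnetic beads. How the allele was made is not stated in the labels, and heterozygous animals are called hemi in the headers of the 17-month RPKM table. Values below are given in the order of the animal numbers, which are HOM-7835, HOM-7893, HOM-7899 and HOM-7901, then HET-7791, HET-7794, HET-7795 and HET-7796, then WT-7782, WT-7783, WT-7785 and WT-7943 at 17 months. At 3 months they are HOM-8282, HOM-8285, HOM-8286 and HOM-8287, then HET-8302, HET-8303, HET-8304 and HET-8309, then WT-8322, WT-8323, WT-8325 and WT-8326.

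Border-associated macrophages take up material from the blood and the cerebrospinal fluid through receptors such as the mannose receptor and the haemoglobin receptor, and they regulate the surroundings of vessels. They carry CD11b, as microglia do, so a CD11b selection can hold both. Removal of the meninges takes away one of their compartments, while the perivascular spaces and the choroid plexus are not removed by that step.

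The targeted gene followed the labels, with 0.243% of the WT mean in HOM and 48.5% in HET at 17 months, and 0.610% and 42.6% at 3 months (exact two-sided permutation test, p = 0.0286 for each, the smallest that 4 against 4 allows). Alignments ranged between 16.7 and 46.4 M per library at 17 months and between 21.8 and 33.8 M at 3 months, and their number limits the precision of low genes. By the summed level of 4 Y-linked genes, the HET animals were all female at 17 months and all male at 3 months, while HOM held 3 males at 17 months and 2 at 3 months and WT 1 at each age, so that genotype and sex are partly mixed. Tmem119, a microglial marker, stood above the 9 genes, at 1282 to 2303 TPM at 17 months and 2159 to 3002 TPM at 3 months. In bulk libraries, fewer cells of a type and less RNA per cell cannot be told apart.

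Promoter windows are shown for 4 of the genes, because the genes moved together between libraries and the windows let a reader compare what lies before their RefSeq transcript starts. Cbr2 and Pf4 are the 2 genes whose heterozygous and wild-type libraries did not overlap at 3 months, Cd163 is the gene closest to the other 8, and Mrc1 held the most matches to the motif marked. Each line gives the 250 bases before the RefSeq transcript start, 5′ to 3′ on the gene's strand in build GRCm38.p6, with the PU-box (the letters GAGGAA or, on the other strand, TTCCTC) in capitals. The windows lie at chr11:120732022-120732271 on the minus strand for Cbr2, chr5:90772185-90772434 on the plus strand for Pf4, chr6:124304401-124304650 on the plus strand for Cd163 and chr2:14229164-14229413 on the plus strand for Mrc1.
Cbr2: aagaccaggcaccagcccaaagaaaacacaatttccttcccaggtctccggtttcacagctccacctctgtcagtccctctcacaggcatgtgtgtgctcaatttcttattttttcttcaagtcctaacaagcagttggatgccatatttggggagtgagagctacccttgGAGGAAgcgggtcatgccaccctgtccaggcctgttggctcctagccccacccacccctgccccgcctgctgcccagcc
Pf4: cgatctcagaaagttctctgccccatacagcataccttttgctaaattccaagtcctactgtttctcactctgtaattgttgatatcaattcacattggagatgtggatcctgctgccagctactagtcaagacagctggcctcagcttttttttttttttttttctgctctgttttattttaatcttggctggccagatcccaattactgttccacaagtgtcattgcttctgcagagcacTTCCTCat
Cd163: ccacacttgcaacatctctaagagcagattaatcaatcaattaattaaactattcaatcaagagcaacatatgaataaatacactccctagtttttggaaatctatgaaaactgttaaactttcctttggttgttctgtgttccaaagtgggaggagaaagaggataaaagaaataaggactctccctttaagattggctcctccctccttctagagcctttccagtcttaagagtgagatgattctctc
Mrc1: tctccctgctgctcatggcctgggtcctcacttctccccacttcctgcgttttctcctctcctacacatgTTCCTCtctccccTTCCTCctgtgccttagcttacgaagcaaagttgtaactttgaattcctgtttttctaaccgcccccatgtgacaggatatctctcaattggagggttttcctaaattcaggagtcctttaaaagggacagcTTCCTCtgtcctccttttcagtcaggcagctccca

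The PU-box is the core of the sequence bound by PU.1, a transcription factor of all macrophages. Mrc1 had 3 matches, while Cbr2 and Pf4 had 1 each, and Cd163 had none in its window. The RefSeq table holds 9 windows for 7 of the genes, and a PU-box stood in 4 of the 9 (1 each of Mrc1, Pf4, Cbr2 and Stab1), against 23.3% of all 32851 windows of this length. The letters TGCTGA or TCAGCA, a core bound by MAF factors, stood in 3 of the 9 (windows of Folr2 and Stab1), against 16.1% of all windows. No site of the PU-box overlapped a site of the other motif in these windows. A match describes the letters of a window and is not a measured binding site. The table holds no window for Lyve1 and Siglec1.

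In GENCODE annotation of GRCm38, Mrc1 and Siglec1 lie far apart on chromosome 2 and Folr2 and Lyve1 far apart on chromosome 7, while the other genes each have a chromosome of their own (Pf4 on 5, Cd163 on 6, Cbr2 on 11, Stab1 on 14 and Ms4a7 on 19). The windows of Cbr2 and Mrc1 shown above reach into these genes as annotated here. Cbr2 begins at 120732114 on the minus strand and Mrc1 at 14229392 on the plus strand. The PU-box marked for Cbr2 lies inside the annotated gene. Of the 9, 3 overlap other annotated genes. Folr2 overlaps the antisense gene Gm10602 and the pseudogene Gm45319, Mrc1 holds Mir511 on its own strand, and Stab1 overlaps Nt5dc2 on the opposite strand. The libraries are stranded, per the labels' protocols, but the strand setting of the counting is not given in the sources used here, so reads of these 3 genes and of their partners may be mixed.

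All 9 genes were measured well above the filter. At 17 months the mean over 12 libraries was 189 TPM for Stab1, 169 for Pf4, 121 for Cbr2, 81.2 for Mrc1, 54.8 for Ms4a7, 53.0 for Folr2, 26.1 for Cd163, 14.9 for Siglec1 and 12.8 for Lyve1. At 3 months it was 338 TPM for Stab1, 177 for Pf4, 129 for Cbr2, 113 for Mrc1, 41.3 for Folr2, 38.4 for Ms4a7, 30.8 for Cd163, 24.4 for Lyve1 and 11.5 for Siglec1. The order of neighbours was not fixed within libraries. At 17 months Ms4a7 was above Folr2 in 6 of 12 libraries, Stab1 above Pf4 in 8 and Siglec1 above Lyve1 in 9, and at 3 months Folr2 was above Ms4a7 in 8 and Cbr2 above Mrc1 in 9. By TPM, Pf4 was above Cbr2 in all 12 libraries at both ages. For each gene alone, the RPKM values (reads per kilobase and M alignments) of the same libraries followed the TPM values. Their r over 12 libraries ran from 0.92 (Stab1 at 3 months) to 0.996 (Lyve1 at 17 months). The order between genes was not always the same. The ratio of mean TPM to mean RPKM ran from 1.66 (Mrc1 at 17 months) to 3.39 (Pf4 at 3 months). In HOM-7901, for instance, Pf4 had an RPKM of 90.0 and Cbr2 of 102.

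Pf4 is also a product of megakaryocytes and platelets, and Lyve1 is also a gene of lymphatic endothelium, so markers of those cells were read beside them. Ppbp, another platelet chemokine, reached at most 0.667 TPM in any library at 17 months and 0.410 TPM at 3 months, and Itga2b reached 0.767 and 0.775 TPM. Ccl21a of lymphatic endothelium was listed at 0 in all libraries, while Prox1 reached 2.84 TPM at 17 months and 5.18 TPM at 3 months. The 8 platelet markers together, 3 of which passed the filter, summed to 53.8 to 71.3 TPM in HOM, 33.7 to 64.8 TPM in HET and 67.1 to 85.9 TPM in WT at 17 months, and to 101 to 126 TPM in HOM, 83.2 to 132 TPM in HET and 96.6 to 128 TPM in WT at 3 months. Much of that sum was Gp9, a subunit of a platelet glycoprotein complex, with 47.9 ± 13.3 TPM in HET and 70.9 ± 8.80 TPM in WT at 17 months (SD, n = 4 each). The 6 lymphatic markers summed to 3.80 to 7.34 TPM over the libraries at 17 months and 3.503 to 7.97 TPM at 3 months, where Lyve1 had between 3.31 and 51.6 TPM. The part of such cells in Pf4 and Lyve1 was not tested.

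At 17 months none of the 9 genes passed the test in any genotype comparison, and the libraries of each genotype spread widely. The scavenger and endocytic receptors come first. Mrc1, the mannose receptor CD206, had 95.5, 108, 48.7 and 78.9 TPM in HOM, 80.2, 82.2, 159 and 55.5 TPM in HET, and 69.5, 47.1, 104 and 46.2 TPM in WT. Cd163, the receptor for haemoglobin bound to haptoglobin, had 26.9, 32.9, 14.2 and 35.1 TPM in HOM, 28.8, 27.8, 50.0 and 15.3 TPM in HET, and 23.4, 20.3, 23.9 and 15.1 TPM in WT. Stab1, the scavenger receptor stabilin-1, had 216, 245, 168 and 213 TPM in HOM, 179, 226, 245 and 129 TPM in HET, and 214, 137, 168 and 124 TPM in WT. HOM-7899, HET-7796 and WT-7943 were the lowest of their genotype for each of these 3 receptors, and the 3 genotypes overlapped for all of them.

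Lyve1 and Siglec1 spread more at 17 months than the 3 scavenger and endocytic receptors, with a within-genotype SD of log2(TPM + 1) of 0.85 and 0.67, while that of Folr2 was 0.42. Lyve1, the hyaluronan receptor, had 10.2, 15.1, 5.89 and 20.4 TPM in HOM, 15.0, 14.1, 22.3 and 3.31 TPM in HET, and 14.8, 13.4, 14.4 and 4.59 TPM in WT. Siglec1, the sialic acid receptor CD169 or sialoadhesin, had 13.6, 10.97, 10.8 and 23.95 TPM in HOM, 17.7, 14.6, 36.3 and 6.99 TPM in HET, and 17.98, 9.27, 7.71 and 9.10 TPM in WT. Folr2, the folate receptor beta, had 44.2, 52.9, 35.8 and 70.5 TPM in HOM, 65.9, 54.4, 90.7 and 41.4 TPM in HET, and 49.3, 47.4, 54.4 and 29.1 TPM in WT. HET-7795 held the highest value of all 12 libraries for each of the 3, and HET-7796 held the lowest value for Lyve1 and Siglec1.

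Cbr2, a carbonyl reductase, had 107, 137, 80.9 and 206 TPM in HOM, 145, 111, 211 and 96.2 TPM in HET, and 94.99, 89.8, 107 and 67.5 TPM in WT at 17 months. Pf4, the chemokine Cxcl4 or platelet factor, had 177, 246, 119 and 234 TPM in HOM, 201, 144, 226 and 122 TPM in HET, and 138, 127, 205 and 87.2 TPM in WT. Ms4a7 had 77.7, 60.4, 36.04 and 60.2 TPM in HOM, 54.4, 47.8, 88.7 and 36.3 TPM in HET, and 71.2, 38.0, 54.4 and 32.6 TPM in WT. WT-7943 was again the lowest wild-type library for all 3 genes, and the genotypes overlapped.

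Changes are given as differences of mean log2(TPM + 1), which understate the change of low genes, with adjusted p from limma by Benjamini-Hochberg over all genes kept. In HOM against WT at 17 months, 0 of the 9 genes passed the adjusted threshold of 0.05, against 0.712% of all 11792 genes. None reached an unadjusted p under 0.05 either, against 18.6% of all genes. All 9 estimates were above 0, with a median of 0.33 against 0.05 over all genes tested. The 9 genes moved together across these libraries (median pairwise r of 0.78), so their signs are not 9 separate observations. Lyve1 was −0.08 when libraries were weighted by their quality, and Lyve1 (−0.25) and Folr2 (−0.03) were below 0 without WT-7943. Among males alone, with 3 HOM and 1 WT, 6 of the 9 estimates were below 0, from −0.02 for Cbr2 to −0.52 for Lyve1, and among females alone, with 1 HOM and 3 WT, all 9 were above 0, up to 1.29 for Cbr2, and none of either was called. Cbr2 had the highest estimate, 0.49 with a 95% interval of −0.11 to 1.09 (adjusted p = 0.379), with means of 133 ± 53.9 TPM in HOM and 89.9 ± 16.7 TPM in WT (SD, n = 4 each). Stab1 had 211 ± 31.9 TPM in HOM and 161 ± 40.2 TPM in WT (SD, n = 4 each), an estimate of 0.41 with an interval of −0.04 to 0.86 (limma adjusted p = 0.320). Lyve1, with 12.9 ± 6.25 TPM in HOM and 11.8 ± 4.85 TPM in WT, had the widest interval, −0.98 to 1.20.

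In HET against WT at 17 months, again 0 of the 9 passed, against 0.237% of all genes, and 0 reached an unadjusted p under 0.05, against 9.24%. Without HET-7796, 5 of the 9 reached an unadjusted p under 0.05, as did 1291 of all 11792 genes, and none was called. The 9 estimates were all above 0, between 0.08 for Lyve1 and 0.60 for Cbr2, with a median of 0.45 against −0.01 over all genes, although Lyve1 was −0.28 without WT-7943 and Ms4a7 −0.04 without HET-7795. Cbr2 had 141 ± 50.8 TPM in HET and 89.9 ± 16.7 TPM in WT (SD, n = 4 each), with an interval of −0.01 to 1.20 (limma adjusted p = 0.551). Siglec1 had 18.9 ± 12.4 TPM in HET and 11.02 ± 4.70 TPM in WT (SD, n = 4 each), an estimate of 0.59 with an interval of −0.28 to 1.45. When libraries were weighted by their quality, Cbr2 (1.003) and Siglec1 (1.38) were called, among 659 genes. HOM against HET gave 0 of 9 called, against 1.86% of all genes, 0 at an unadjusted p under 0.05, against 13% of all genes, and a median of −0.11 against 0.07 over all genes. In that comparison the sign of 8 of the 9 estimates turned when 1 library was left out, the exception being Folr2 at −0.29, which was 0.22 among females alone (1 HOM and 4 HET). With library weights Siglec1 (−1.07) and Folr2 (−0.74) were called, among 1136 genes. The 3 comparisons share libraries and the 9 genes moved together across them, so neither the comparisons nor the genes are separate evidence. No gene had non-overlapping genotypes at 17 months, against 9.5% of all genes with HOM above WT and 4.05% below it, 1.29% with HET above WT and 3.25% below it, and 6.68% with HOM above HET and 1.17% below it.

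**Figure D1:**
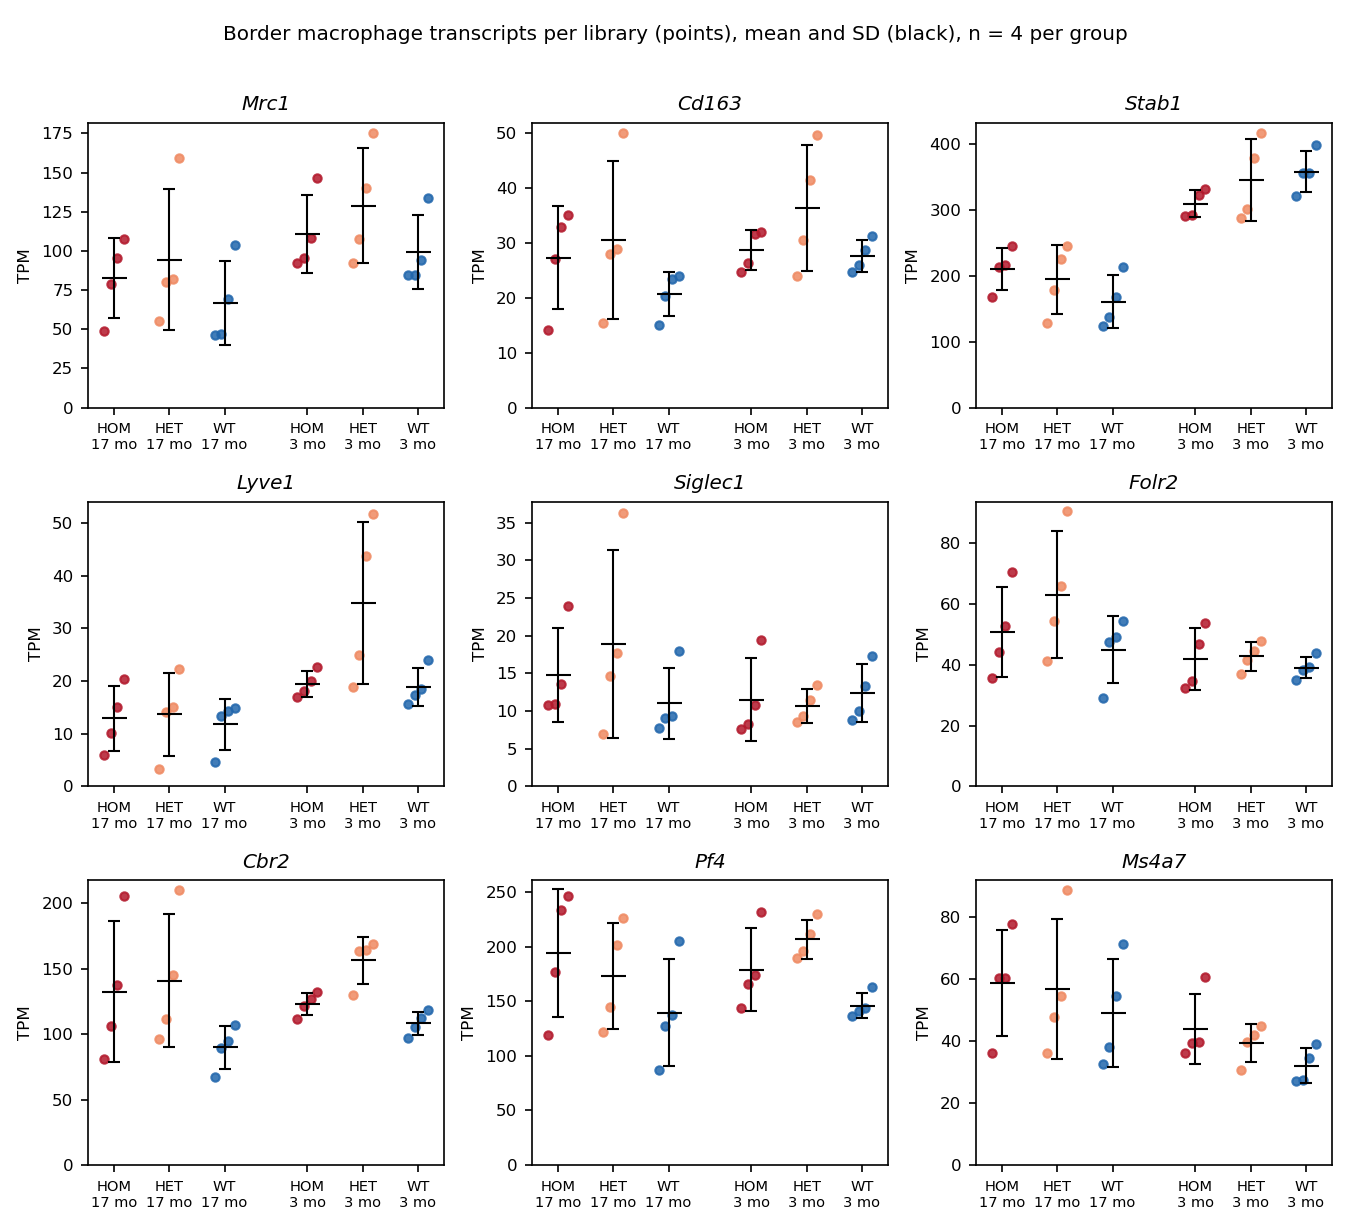
TPM of each of the 9 genes in each library (points) for HOM, HET and WT at 17 and 3 months, with the mean and SD of 4 libraries in black. The genotypes overlap in all panels except the Cbr2 and Pf4 panels, where the 4 HET libraries at 3 months lie above the 4 WT libraries.

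At 3 months the libraries of a genotype lay closer together, and the largest estimates were those of heterozygous against wild-type animals. Cbr2 had 121, 127, 112 and 132 TPM in HOM, 164, 169, 164 and 129.8 TPM in HET, and 118, 112, 106 and 97.1 TPM in WT. Pf4 had 174, 232, 143 and 166 TPM in HOM, 196, 230.2, 211 and 189.7 TPM in HET, and 141, 144, 137 and 163 TPM in WT. For both genes every heterozygous library lay above every wild-type library, which held for 1.3% of all genes tested. Lyve1 had 17.0, 20.0, 18.1 and 22.6 TPM in HOM, 43.8, 51.6, 24.9 and 18.9 TPM in HET, and 18.5, 23.99, 15.6 and 17.3 TPM in WT. HET-8302 and HET-8303 carried most of the Lyve1 excess, while HET-8309 lay inside the wild-type range.

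None of these differences passed the adjusted threshold. In HET against WT at 3 months, 0 of the 9 were called, against 0.0432% of all 11587 genes, and 3 (Cbr2, Pf4 and Lyve1) reached an unadjusted p under 0.05, against 21.6% of all genes. Cbr2 averaged 157 ± 18.1 TPM in HET and 108 ± 9.07 TPM in WT (SD, n = 4 each), a log2 change of 0.52 with a standard error of 0.09 (limma adjusted p = 0.0517). Pf4 averaged 207 ± 18.01 TPM in HET and 146 ± 11.6 TPM in WT (SD, n = 4 each), a log2 change of 0.50 with a standard error of 0.12 (limma adjusted p = 0.0700). Lyve1 averaged 34.8 ± 15.4 TPM in HET and 18.8 ± 3.63 TPM in WT (SD, n = 4 each), a log2 change of 0.76 with a standard error of 0.26 (limma adjusted p = 0.130). The RPKM values gave log2 changes of 0.60 for Cbr2, 0.59 for Pf4 and 0.87 for Lyve1, with limma adjusted p of 0.0949, 0.0949 and 0.182.

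That none of these 3 genes was called rests in part on HET-8309. Without it, all 3 genes were called, with log2 changes of 0.61 for Cbr2 (limma adjusted p = 0.00446), 0.54 for Pf4 (0.0480) and 1.01 for Lyve1 (0.0344), while 467 genes were then called in place of 5. Over all 12 fits that left out 1 library, the adjusted p ran from 0.00446 to 0.191 for Cbr2 and from 0.0480 to 0.218 for Pf4. Cbr2 was also called when the filter on low values was raised to 5 TPM (0.0461) and when each library was centred on its median (0.63, adjusted p = 0.0328). The median of all genes was −0.09 in this comparison and 0.02 after centring, so most genes were slightly lower in HET by TPM. The estimates of Cbr2 and Pf4 were above 0 under all scalings run. With library weights 6 of the 9 genes were called (Cbr2, Pf4, Lyve1, Mrc1, Cd163 and Ms4a7), together with 3507 of all 11587 genes.

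The 4 heterozygous animals at 3 months were male, and 3 of the 4 wild-type animals were female. With a term for sex, the log2 change was 0.58 for Cbr2 (limma adjusted p = 0.397) and 0.27 for Pf4 (0.418), and among males alone, with 4 HET and 1 WT, where the lone WT library is assumed to vary like the others, it was 0.68 for Cbr2 and 0.34 for Pf4 (0.709 for both). Neutrophil and monocyte markers are given beside these results. The summed level of the neutrophil markers, 11 of 12 of which are in the tables, had a median of 3134 TPM (1962 to 5444) in HET and 1793 TPM (1184 to 2849) in WT, and that of the 12 monocyte markers had a median of 215 TPM (153 to 269) in HET and 159.8 TPM (131 to 199) in WT. Choroid plexus and ependymal genes summed to 336 to 4169 TPM in HET and 710 to 1190 TPM in WT. The part of these cells in the 3 results was not tested.

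The other 6 genes showed smaller estimates in HET against WT at 3 months. Mrc1 had 140.2, 175, 108 and 92.2 TPM in HET and 84.6, 94.4, 84.8 and 134 TPM in WT, with an estimate of 0.35 and an interval of −0.10 to 0.81. Cd163 had 41.4, 49.5, 30.4 and 23.9 TPM in HET and 28.6, 31.2, 24.6 and 26.0 TPM in WT, with an estimate of 0.34 and an interval of −0.06 to 0.74. HET-8302 and HET-8303 were the 2 highest heterozygous libraries for both receptors, as for Lyve1, and the groups overlapped. Ms4a7 and Folr2 had estimates of 0.29 and 0.12, while Stab1 (−0.06) and Siglec1 (−0.17) were below 0, although Stab1 turned to 0.05 when libraries were centred on their medians. The median of the 9 estimates was 0.34, against −0.09 over all genes. Siglec1 was at 0.13 with a term for sex, and among males alone Mrc1 was at −0.10 and Siglec1 at 0.06. The lowest and highest Siglec1 libraries at 3 months had 7.57 and 19.5 TPM in HOM, 8.48 and 13.5 TPM in HET and 8.79 and 17.3 TPM in WT. For Folr2 they had 32.5 and 53.9 TPM in HOM, 36.97 and 47.9 TPM in HET and 35.1 and 43.8 TPM in WT. For Stab1 the heterozygous libraries lay between 288 and 418 TPM, and for Ms4a7 between 30.8 and 44.8 TPM. The 3 genotypes overlapped for these 4 genes. Homozygous libraries lay between 92.6 and 146 TPM for Mrc1 and between 24.7 and 31.9 TPM for Cd163.

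HOM against WT at 3 months gave 0 of 9 called, against 0.0604% of all genes, and 2 (Pf4 and Ms4a7) at an unadjusted p under 0.05, against 19.7%. Ms4a7 had 39.2, 60.6, 36.2 and 39.7 TPM in HOM and 34.5, 27.2, 27.5 and 38.9 TPM in WT, a log2 change of 0.43 (limma adjusted p = 0.197). HOM-8285 was far above the other homozygous libraries for Ms4a7, and it was also the highest of them for Mrc1, Folr2 and Pf4. Pf4 averaged 179 ± 37.8 TPM in HOM and 146 ± 11.6 TPM in WT (SD, n = 4 each), a log2 change of 0.27 (limma adjusted p = 0.243). Stab1 had 292, 322, 293 and 332 TPM in HOM and 322, 399, 357 and 356 TPM in WT, a log2 change of −0.21 (limma adjusted p = 0.319). The median of the 9 estimates was 0.07, against −0.10 over all genes.

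HOM against HET at 3 months gave 0 of 9 called, against 0.0259% of all genes, with Cbr2 and Lyve1 at an unadjusted p under 0.05, against 8.55%. Cbr2 averaged 123 ± 8.65 TPM in HOM and 157 ± 18.1 TPM in HET (SD, n = 4 each), a log2 change of −0.34 (limma adjusted p = 0.356). Lyve1 averaged 19.4 ± 2.47 TPM in HOM and 34.8 ± 15.4 TPM in HET (SD, n = 4 each), a log2 change of −0.71 (limma adjusted p = 0.465). Cbr2 was called when HET-8309 was left out (limma adjusted p = 0.0292), and with library weights 6 of the 9 were called, all lower in HOM, together with 3074 of all genes. No gene had non-overlapping genotypes in HOM against WT or HOM against HET, against 1.78% of all genes with HOM above WT and 15.1% below it, and 1.5% with HOM above HET and 2.85% below it. In HET against WT no gene of the 9 lay wholly below WT, against 9.99% of all genes.

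The genotype effects were also compared between the ages. None of the 9 genes passed that test for HOM against WT (0.254% of all 11436 genes), HET against WT (0.691%) or HOM against HET (2.03%). Stab1 alone reached an unadjusted p under 0.05, in HOM against WT, against 21.8% of all genes. Its change was 0.41 at 17 months and −0.21 at 3 months, a difference of 0.62 on the log2 scale with an interval of 0.10 to 1.13 (limma adjusted p = 0.158). The levels at the 2 ages come from separate tables and were not tested against each other.

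**Figure D2:**
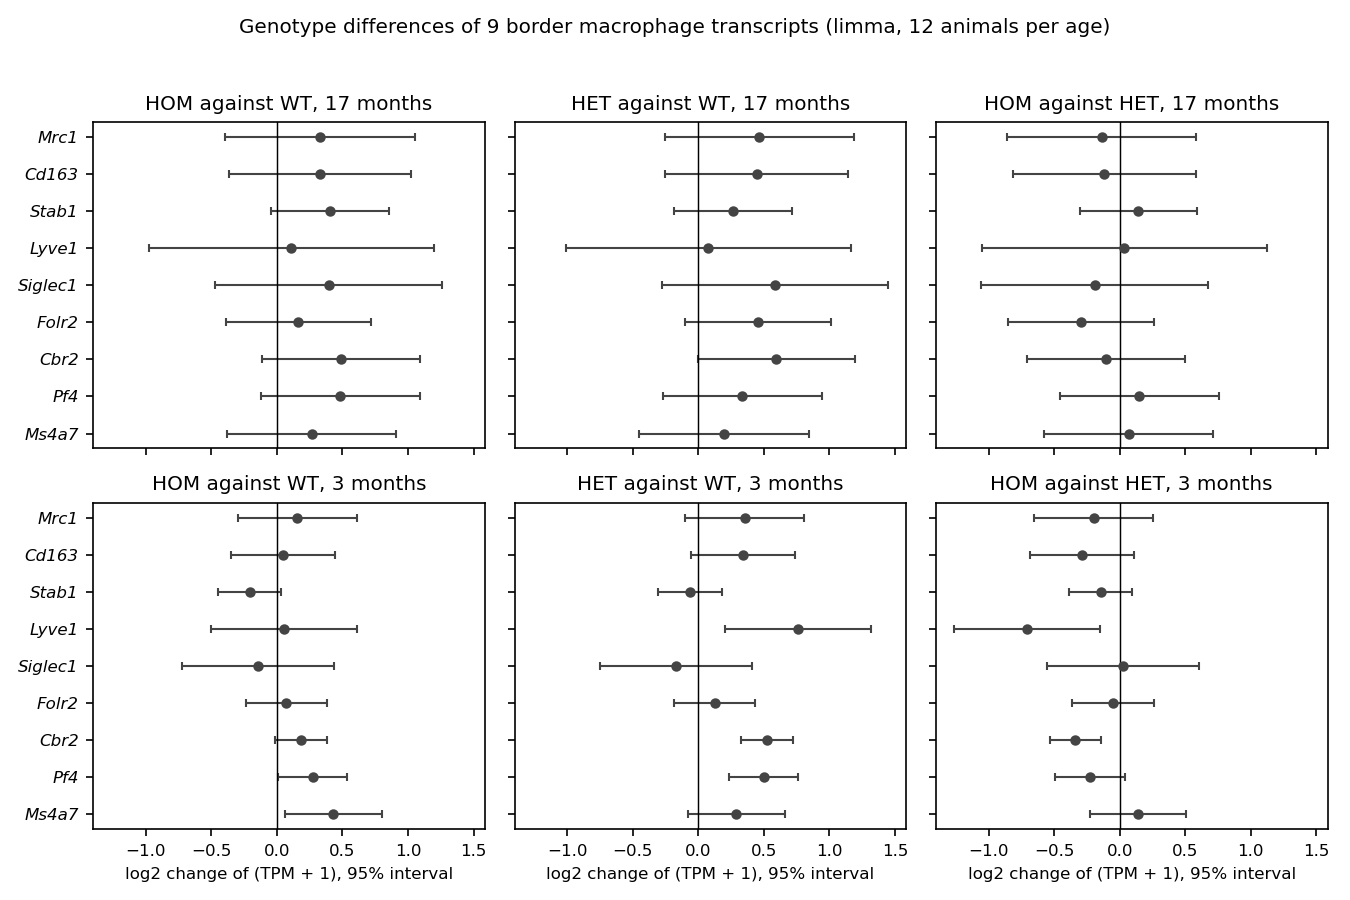
Log2 change of TPM + 1 of each of the 9 genes (points) with its 95% interval from limma, for HOM against WT, HET against WT and HOM against HET at 17 months (top) and 3 months (bottom). The intervals of Cbr2, Pf4 and Lyve1 in HET against WT and of Pf4 and Ms4a7 in HOM against WT at 3 months lie above 0, those of Cbr2 and Lyve1 in HOM against HET at 3 months lie below 0, and those at 17 months all include 0.

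Summed over the 9 genes, HOM had 784 ± 192 TPM, HET 786 ± 259 TPM and WT 594 ± 150 TPM at 17 months (SD, n = 4 each). At 3 months HOM had 868 ± 108 TPM, HET 1002 ± 161 TPM and WT 842 ± 47.4 TPM (SD, n = 4 each). The spread between animals at 17 months was thus about as large as the distance of the HOM and HET means from the WT mean. The HOM and HET means nearly coincided. The lowest and highest heterozygous libraries, HET-7796 and HET-7795, had 505 and 1129 TPM.

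The 9 genes moved up and down together between animals of the same genotype. Each library was expressed as its log2 deviation from the mean of its genotype, gene by gene, so that genotype means play no part. At 17 months HET-7795 was above its genotype mean for all 9 genes, by 0.71 on average, and HET-7796 was below it for all 9, by −0.75 on average. HET-7796 also stood apart as a library, with 6574 genes listed at 0, against 4396 to 5383 in the other 11 libraries of that age, and the lowest sum over the table (78.9% of the total that TPM is scaled to). Its mean deviation was the lowest of the 12 for microglial genes (−0.35) and for scavenger and iron genes (−0.32), and it was 1.39 for neutrophil genes. The part of these differences in its low values was not tested. HOM-7899 (−0.60) and WT-7943 (−0.50) were below their genotype mean for all 9 as well, and WT-7782 (0.31) was above it for all 9. Each of the 3 genotypes thus held a library in which the whole set was low.

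**Figure D3:**
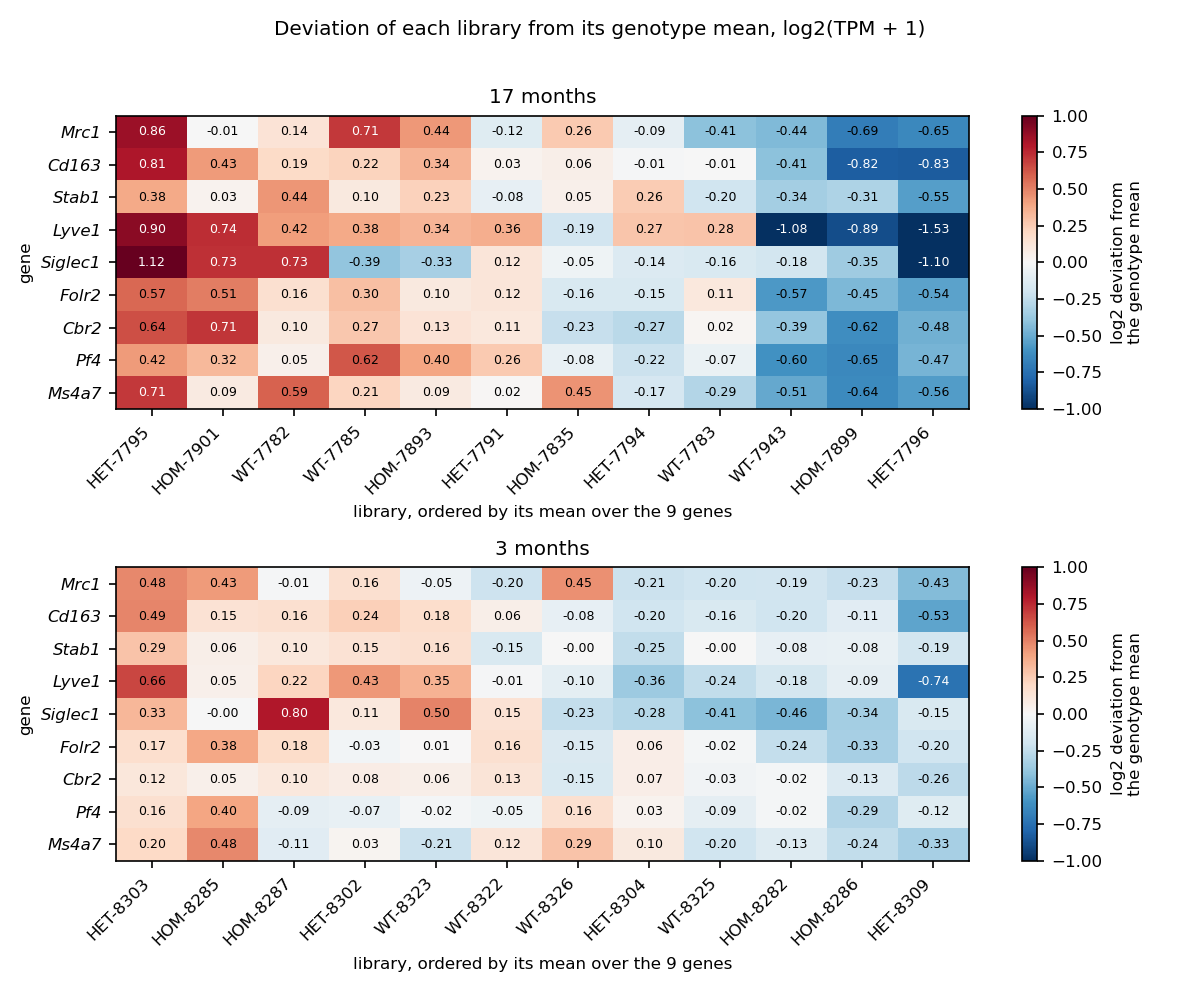
Deviation of each library from its genotype mean, in log2(TPM + 1), for each of the 9 genes at 17 months (top) and 3 months (bottom), with libraries ordered by their mean over the genes and colours saturating at 1 and −1. At 17 months whole columns are red (HET-7795) or blue (HOM-7899, HET-7796), while the 3-month columns are paler.

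Over the 36 pairs of genes, the median Pearson correlation of these deviations across the 12 libraries was 0.78 at 17 months, with a range of 0.46 to 0.96 and 35 pairs above 0.5. Spearman's rho had a median of 0.76, and leaving out the 2 libraries farthest from the median of each pair's first gene gave a median of 0.70. The highest pairs were Cbr2 with Folr2 (0.96), Lyve1 with Folr2 (0.94) and Cd163 with Lyve1 (0.93), and the lowest was Pf4 with Siglec1 (0.46). The correlations are descriptions, since the libraries share their preparation and all genes of a library share its depth.

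At 3 months the set was looser. The median over the 36 pairs was 0.58, with a range of 0.06 to 0.98 and 20 pairs above 0.5. Cd163 with Lyve1 was the tightest pair (0.98), followed by Lyve1 with Stab1 (0.89) and Pf4 with Ms4a7 (0.87). Siglec1 was nearly unrelated to Ms4a7 (0.06) and to Pf4 (0.10). Cd163 with Stab1 was at 0.85 and Cd163 with Cbr2 at 0.77. Mrc1 was tied to Ms4a7 (0.80) and Pf4 (0.76) and nearly as closely to Cd163 (0.71), Stab1 (0.70) and Lyve1 (0.66). At 3 months HET-8303 stood highest (0.32, above its genotype mean for all 9 genes) and HET-8309 lowest (−0.33, below it for all 9).

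**Figure D4:**
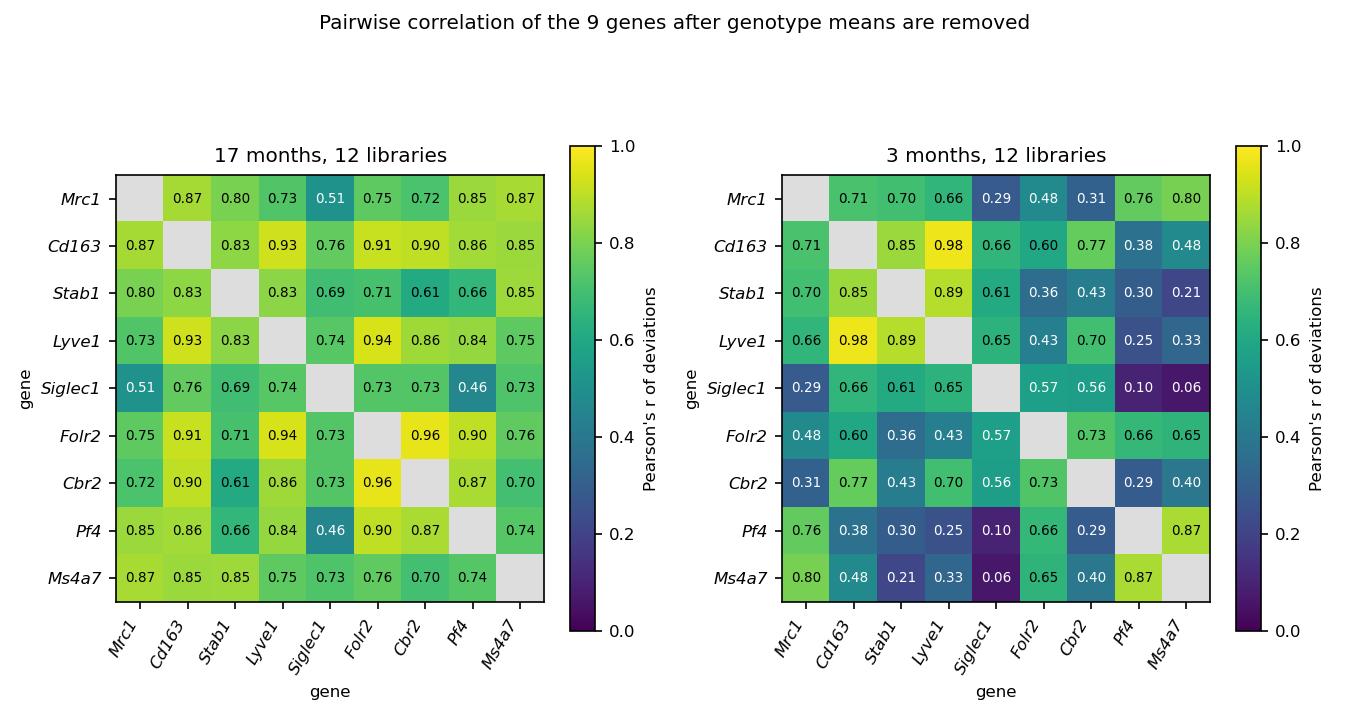
Pearson correlation between the deviations of each pair of the 9 genes across 12 libraries at 17 months (left) and at 3 months (right). Nearly all cells are above 0.5 at 17 months, and at 3 months the cells of Siglec1 with Pf4 and Ms4a7 are near 0.

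The genes also spread more between animals than most genes did at 17 months. The within-genotype SD of log2(TPM + 1) at 17 months ran from 0.34 for Stab1 to 0.85 for Lyve1, against a median of 0.20 over all genes tested. At 3 months it ran from 0.14 for Cbr2 to 0.43 for Siglec1, against a median of 0.16. Cbr2 lay below that median at 3 months, and at 17 months its SD of 0.46 exceeded that of 92.1% of genes. Correlated with the mean of the other 8 across all 24 libraries, Cd163 ranked first of 11428 genes (r = 0.96), Folr2 5th (0.89), Lyve1 6th (0.90), Cbr2 10th (0.86), Stab1 17th (0.82), Mrc1 19th (0.80), and Pf4 and Ms4a7 24th (0.80 each). Siglec1 was the least tied to the rest, with r = 0.68 and rank 128, and 0.46 without the 2 libraries farthest from its median, HET-7795 and HET-7796.

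Ratios between the genes were also taken within each library. Cd163 stood to Mrc1 at 0.331 ± 0.0765 in HOM, 0.322 ± 0.0356 in HET and 0.331 ± 0.0814 in WT at 17 months (SD, n = 4 each). At 3 months that ratio was 0.263 ± 0.0350 in HOM, 0.280 ± 0.0150 in HET and 0.288 ± 0.0664 in WT. The ratio of Ms4a7 to Mrc1 ran from 0.525 to 1.02 over the 12 libraries at 17 months and from 0.256 to 0.414 over the 12 at 3 months, so the ages did not overlap in it. Ms4a7 was the exception among the ratios to Mrc1 that were taken. Those of Lyve1, Siglec1, Cbr2, Pf4 and Cd163 all overlapped between the ages. The tables of the ages were made separately, and the difference in the Ms4a7 ratio was not tested. How often ratios of other gene pairs keep the ages apart was not tested either.

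Among the 11436 genes kept at both ages, the 10 non-members whose deviations were most like the mean of the 9 over 24 libraries were Itsn1 (r = 0.94), Dab2 (0.93), F13a1 (0.92), Igfbp4 (0.90), Arhgap19 (0.88), Wwp1 (0.88), Prune2 (0.87), Chp2 (0.86), Iqgap2 (0.85) and Aoah (0.85). Dab2, an endocytic adaptor, and F13a1, the coagulation factor XIII A chain, were in the list of other border-associated macrophage genes, and the remaining 8 were in no list. Itsn1 held at both ages, with 0.95 at 17 months and 0.91 at 3 months, at mean levels of 13.2 and 14.7 TPM.

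The list of 28 other border-associated macrophage genes, such as F13a1, Dab2 and the Cd209 lectins, followed the same libraries. All 28 passed the filter at both ages, and the list was chosen with earlier results of these data known. Its mean deviation correlated with that of the 9 genes at r = 0.95 (rho = 0.92) over 12 libraries at 17 months and at 0.90 (rho = 0.89) at 3 months, and at 0.90 and 0.84 without the 2 libraries farthest from the median, HET-7796 and HET-7795 or HET-8309 and HET-8303. Their median log2 change was 0.33 in HOM against WT and 0.34 in HET against WT at 17 months, against 0.05 and −0.01 over all genes, with 21 and 25 of the 28 above 0. At 3 months the medians were 0.07 and 0.14, against −0.10 and −0.09, with 19 and 23 of the 28 above 0. The 28 genes share their libraries with each other and with the 9 genes, so these signs are not separate evidence. Other lists shifted as well at 17 months. In HOM against WT the medians were 1.68 for neutrophil, 1.39 for monocyte, 0.43 for MHC class II and −0.21 for microglial genes. Microglial genes were the only list with a median below 0 there. In HET against WT these lists had 1.36, 0.50, 0.09 and −0.17, and platelet, lymphatic and endothelial genes also had medians below 0. Of the 28, 1 passed the test in any comparison. Hpgd, which degrades prostaglandins, fell in HOM against WT at 17 months to 165 ± 23.2 TPM, against 244 ± 23.0 TPM in WT (SD, n = 4 each), a log2 change of −0.57 (limma adjusted p = 0.0440). That is 1 of 28 genes in a comparison that called 0.712% of all genes. The call was kept in 6 of 11 other settings and in 4 of 12 fits that left out 1 library.

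**Figure D5:**
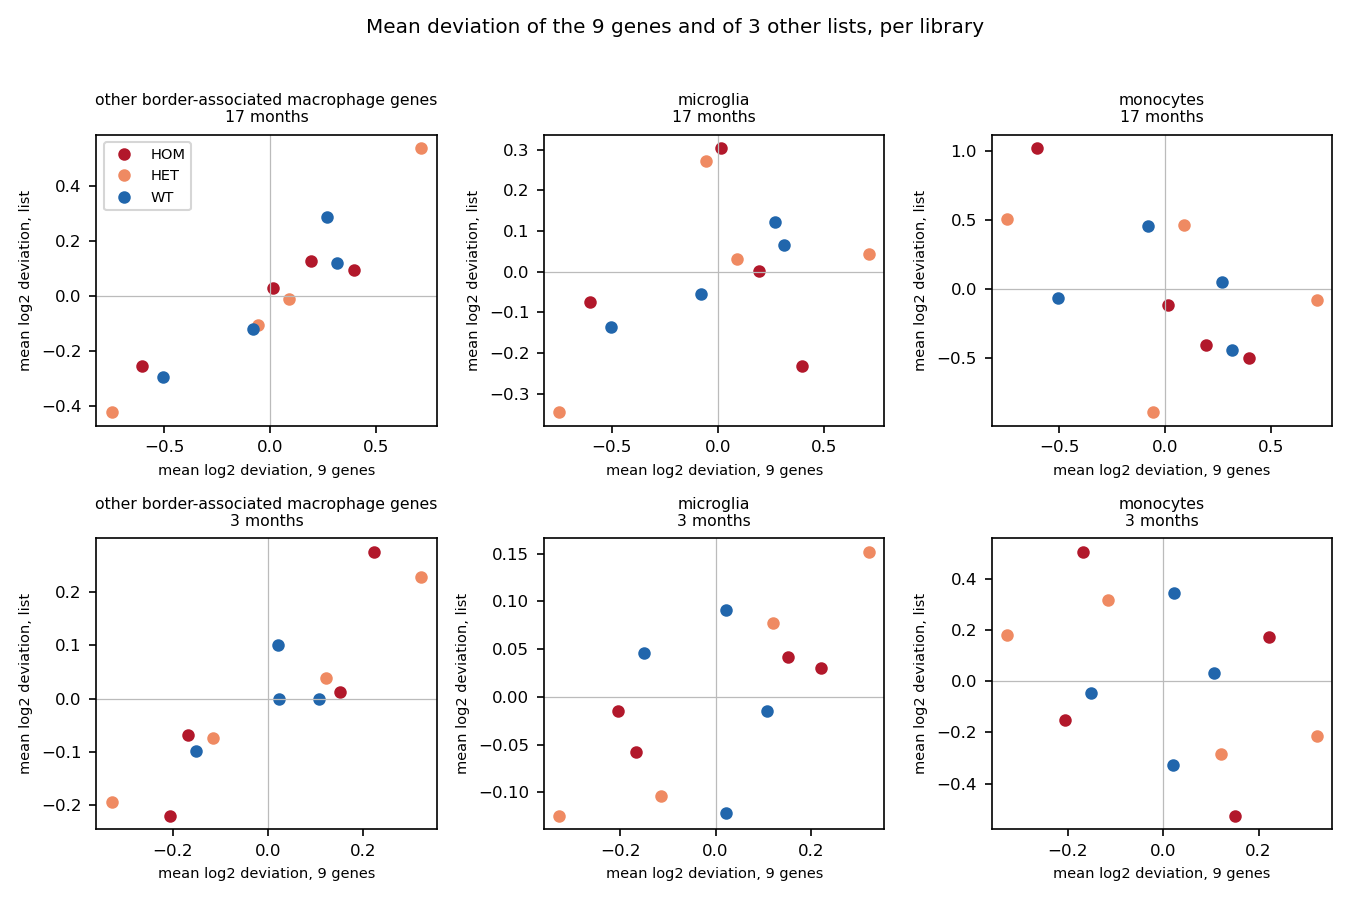
Mean log2 deviation of the 9 genes (horizontal axis) against that of the 28 other border-associated macrophage genes, 12 microglial genes and 11 monocyte genes (vertical axis) per library, at 17 months (top) and 3 months (bottom). The points of the 28 genes rise along a line at both ages, and those of microglia and monocytes scatter more widely. For microglia r was 0.40 at 17 months and 0.67 at 3 months, and for monocytes it was −0.53 and −0.42.

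Other cell types' markers were tied more loosely to the 9 genes across libraries. At 17 months the correlation was 0.78 for 14 scavenger receptor and iron recycling genes and 0.71 for 8 MHC class II genes, which were 0.49 and 0.50 without HET-7796 and HET-7795. The scavenger and iron list shares Colec12, Cd36 and Slc40a1 with the list of 28. Microglial genes gave 0.40 and monocyte genes −0.53. Neutrophil genes gave −0.34, choroid plexus and ependymal genes 0.27, fibroblast genes 0.49, endothelial and mural genes −0.14, dendritic cell genes 0.67, platelet genes 0.04 and lymphatic genes 0.35. The number of alignments gave −0.15. The sum of TPM over the table gave 0.39, which was −0.08 without HET-7796 and HET-7795. At 3 months the values were 0.80 for scavenger and iron genes, 0.41 for MHC class II, 0.67 for microglia, −0.42 for monocytes and −0.55 for neutrophils. Dendritic cell genes gave 0.55, choroid plexus genes −0.39, fibroblast genes −0.45, endothelial genes −0.41, platelet genes −0.58 and lymphatic genes 0.33, and alignments −0.03. The sum over the table gave −0.24. Immediate early genes, read as a sign of handling, gave 0.51 at 17 months and −0.10 at 3 months. Several of these values rested on the same pair of libraries. Without HET-7796 and HET-7795, the 17-month values were 0.40 for dendritic cells, 0.21 for immediate early genes, 0.14 for microglia, 0.10 for lymphatic genes and −0.0019 for neutrophils, while choroid plexus genes gave 0.47, alignments −0.49 and monocytes −0.55. Without HET-8309 and HET-8303, the 3-month values were 0.05 for platelets, −0.22 for neutrophils, 0.38 for microglia, 0.65 for scavenger and iron genes, 0.52 for MHC class II and 0.77 for dendritic cells. Alignments then gave −0.24 and the sum over the table −0.61.

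The same lists showed which other transcripts differed between genotypes while the 9 genes did not pass the test. In HOM against WT at 17 months, which called 0.712% of all genes, 2 of 10 endothelial and mural genes rose, with Vtn (vitronectin) at 31.0 ± 3.84 TPM in HOM and 15.8 ± 2.50 TPM in WT and Pdgfrb, a receptor of pericytes, at 3.07 ± 0.204 TPM in HOM and 1.73 ± 0.0878 TPM in WT (SD, n = 4 each). The limma adjusted p was 0.0440 for Vtn and 0.0459 for Pdgfrb. Of 12 choroid plexus and ependymal genes, Ccdc153 (log2 change 1.59) and the water channel Aqp1 (1.16) rose, and of 12 immediate early genes the nuclear receptor Nr4a1 (1.49) rose. Of 12 microglial genes, Gpr34 fell to 369 ± 57.5 TPM in HOM, against 653 ± 86.2 TPM in WT (SD, n = 4 each, limma adjusted p = 0.0349). Each of these calls was lost in at least 6 of the 12 fits that left out 1 library. In HOM against HET at 17 months, which called 1.86% of all genes, Gpr34 fell (−0.73) and 9 of 10 endothelial and mural genes rose, from Pecam1 (0.68) to Ly6c1, which had 201 ± 27.4 TPM in HOM and 73.8 ± 16.6 TPM in HET (SD, n = 4 each). Ly6c1 and Esam were called in 9 of 10 other settings, the exception being females alone, and in all 12 fits that left out 1 library, while Acta2 was called in 3 and 4 of them.

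No gene of any list passed in HET against WT at 17 months or in the 3 comparisons at 3 months, and none of the scavenger, MHC class II, monocyte, neutrophil, dendritic cell, platelet, lymphatic and fibroblast lists passed in any of the 6. Choroid plexus genes summed to 1667 to 4867 TPM in HOM, 1099 to 1531 TPM in HET and 351 to 1605 TPM in WT at 17 months. Neutrophil genes summed to 2603 to 6459 TPM in HOM, 905 to 11653 TPM in HET and 735 to 2830 TPM in WT at that age. The part of these transcripts in the estimates of the 9 genes was not tested.

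In each list without a call, the 2 genes with the smallest p are given with their limma adjusted p. These were Fth1 (−0.41 in HOM against WT at 17 months, 0.127) and Scarb1 (−0.31 in HET against WT at 3 months, 0.0902) of the scavenger and iron list. For MHC class II they were H2-Aa, with 854 ± 242 TPM in HOM and 526 ± 52.4 TPM in WT at 3 months (0.0896), and Cd74, with 1549 ± 313 TPM in HOM and 1034 ± 92.3 TPM in HET at 3 months (SD, n = 4 each, adjusted p from limma 0.257). Monocyte genes gave Ms4a4c (0.73 in HOM against WT at 3 months, 0.0838) and Ace (1.99 in HOM against HET at 17 months, 0.0708), and neutrophil genes gave S100a8 (1.36, 0.123) and Camp (1.78, 0.169) in HOM against WT at 3 months. Dendritic cell genes gave Ccr7 (0.86 in HOM against HET, 0.356) and Itgae (−0.44 in HET against WT, 0.120) at 3 months. Platelet genes gave Treml1 (0.96 in HOM against HET, 0.0708) and Gp9 (−0.59 in HET against WT, 0.273) at 17 months. Lymphatic genes gave Flt4 (0.54 in HOM against HET at 17 months, 0.195) and Pdpn (−0.62 in HOM against HET at 3 months, 0.487), and fibroblast genes gave Mgp (0.96 at 17 months, 0.0814) and Igf2 (−0.77 at 3 months, 0.346) in HOM against WT.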

How the data were processed

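Bulk RNA-seq of CD11b-sorted cells was deposited as TPM tables, made by the authors, with 20636 genes at each age, and as RPKM tables by the authors, used here as an alternative. The submitters' processing notes name mm10 and, in no stated order, Salmon 0.8.2, Partek 7.17.0918, TopHat2 2.1.1 and DESeq2, and which of them made which table is not given in the sources used here. The tables hold no read counts, so count models were not run. Columns carry animal numbers, which the RPKM file headers pair with genotypes (hemi was taken as HET), and no source links them to the numbering in the labels. P-values measure the spread between these animals. Sex was read from 4 Y-linked genes, with a limit of 5 TPM on their sum.

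Log2(TPM + 1) was fitted per age with limma 3.58.1 in R 4.3.3, with 12 libraries, a mean per genotype and a trend with expression, two-sided, and p-values were adjusted over all genes kept by a filter at a mean of 1 TPM. All 9 genes passed it, so the exact permutation test planned for genes under it was not needed. Genotype effects were compared between ages in a fit of all 24 libraries. The RPKM fits added 0.1. On simulated data of HOM against WT, 200 genes drawn at random from all genes kept were changed. Log2 changes of 0.5 and 1 were recovered in 24% and 76% of genes at 17 months (2 false calls among 11792 genes). At 3 months the shares were 47% and 86% (4 false calls among 11587). The median within-genotype SD of all genes was 0.20 at 17 months, while the 9 genes had 0.34 (Stab1) to 0.85 (Lyve1). The shares therefore do not tell how often such changes would be called in the 9 genes.

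The 9 genes and all lists were chosen with earlier results of these data known. Genes outside the 9 are named if they are among the 10 most alike or are called members of a list, or, in a list with none called, if they have the 2 smallest p. Tmem119, Ppbp, Itga2b, Ccl21a and Prox1 were added, after their values were seen, to show defining markers. Alternatives were the pseudocount, the filter, RPKM, median centring, quantile normalization, library weights, the 2 groups alone, a term for sex, each library left out and, added after seeing the data, each sex alone. Python 3.11.15 (pandas 2.3.3, scipy 1.17.1, matplotlib 3.10.9) made summaries and figures.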

Additional observations from a re-analysis of the deposited data

Results flagged for a closer look

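In 4 of the 54 sets of 4 libraries examined (9 genes in 6 groups), 1 library lay far from the other 3, and chance alone gives about 1 in 20 such sets. Cbr2 was 129.8 TPM in HET-8309 at 3 months, while the other 3 HET libraries lay between 164 and 169 TPM. Ms4a7 was 60.6 TPM in HOM-8285 at 3 months, above the 36.2 to 39.7 TPM of the other 3 HOM libraries. Lyve1 was 4.59 TPM in WT-7943 at 17 months, where the other 3 WT libraries had 13.4 to 14.8 TPM. Siglec1 was 17.98 TPM in WT-7782 at 17 months, and the other 3 WT libraries had 7.71 to 9.27 TPM.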

How the results depend on the processing

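No paired analysis was possible because the columns of the tables are headed by animal numbers, and no source links these to the replicates named in the labels. Of the results for single genes, the tally over fits that left out 1 library was 677 unchanged in direction and call, 39 turned in direction and 4 newly called, and over the other settings, each sex alone included, 524, 37 and 21.

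The number of the 9 genes called, 0 in each comparison, changed mainly with library weights. It was then 2 in HET against WT and 2 in HOM against HET at 17 months, 1 in HOM against WT, 6 in HET against WT and 6 in HOM against HET at 3 months, and 1 in HOM against WT and 3 in HET against WT between the ages. In HET against WT at 3 months it was 1 with a filter at 5 TPM and 1 with median centring. With 1 library left out it ran from 0 to 3 in HET against WT and from 0 to 1 in HOM against HET at 3 months, the highest without HET-8309.

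With library weights, log2 changes were −0.081 for Lyve1 in HOM against WT at 17 months, −0.18 for Pf4, −0.72 for Lyve1, −0.44 for Ms4a7 and −0.11 for Stab1 in HOM against HET at 17 months, −0.027 for Cd163, −0.033 for Lyve1 and −0.088 for Folr2 in HOM against WT at 3 months, 0.044 for Stab1 in HET against WT, and −0.030 for Ms4a7 and −0.17 for Siglec1 in HOM against HET at 3 months. Median centring gave −0.049 for Lyve1 and −0.013 for Ms4a7 in HOM against HET at 17 months and 0.048 for Stab1 in HET against WT at 3 months, and quantile normalization gave −0.048 for that Lyve1 value. With a term for sex, HOM against HET at 17 months was 0.11 for Cbr2 and 0.37 for Siglec1, and Siglec1 was 0.13 in HET against WT and −0.17 in HOM against HET at 3 months. RPKM gave 0.014 for Stab1 in HET against WT at 3 months. Fits of each sex alone, in which a lone library is assumed to vary like the others, turned more. Males alone gave −0.38 for Mrc1, −0.037 for Cd163, −0.24 for Pf4, −0.52 for Lyve1, −0.021 for Cbr2 and −0.31 for Folr2 in HOM against WT at 17 months. At 3 months they gave −0.18 for Mrc1 in HOM against WT, −0.0995 for Mrc1 and 0.065 for Siglec1 in HET against WT, and −0.20 for Siglec1 and 0.022 for Folr2 in HOM against HET. Females alone gave 0.31 for Cd163, 0.61 for Cbr2, 0.54 for Siglec1 and 0.22 for Folr2 in HOM against HET at 17 months, and 0.0092 for Siglec1 and −0.049 for Folr2 in HOM against WT at 3 months. The cause was not tested.

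With 1 library left out, HOM against WT at 17 months ran from −0.25 to 0.41 for Lyve1 and −0.027 to 0.32 for Folr2, and HET against WT from −0.28 to 0.59 for Lyve1 and −0.041 to 0.39 for Ms4a7. HOM against HET at 17 months ran from −0.35 to 0.15 for Mrc1, −0.39 to 0.16 for Cd163, −0.0058 to 0.36 for Pf4, −0.48 to 0.33 for Lyve1, −0.34 to 0.11 for Cbr2, −0.12 to 0.31 for Ms4a7, −0.041 to 0.27 for Stab1 and −0.56 to 0.18 for Siglec1. At 3 months, HOM against WT ran from −0.0036 to 0.11 for Cd163, −0.029 to 0.17 for Lyve1, −0.41 to 0.023 for Siglec1 and −0.055 to 0.18 for Folr2, HET against WT from −0.16 to 0.020 for Stab1, and HOM against HET from −0.021 to 0.22 for Ms4a7, −0.24 to 0.18 for Siglec1 and −0.18 to 0.059 for Folr2.

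Counts of all genes called moved far more. In HOM against WT at 17 months 84 genes were called, against 5 with a term for sex, 19 with a pseudocount of 0.1, 742 by RPKM and 1858 with library weights. The share of higher calls there was 65.5%, against 33.5% with median centring and 43.9% with quantile normalization. In HOM against HET at 17 months it was 90.9%, against 61.9% and 67.2%. With 1 library left out the count ran from 1 to 367 in HOM against WT at 17 months and from 3 to 467 in HET against WT at 3 months. The median correlation among the 9 genes was 0.70 to 0.84 at 17 months and 0.50 to 0.65 at 3 months with 1 library left out, and 0.75 and 0.46 by RPKM.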
